A study of Homo sapiens with 6 samples.

Results

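The 10 genes described here encode proteins of immunogenic cell death: the calreticulin route (CALR, CANX, PDIA3 and BCAP31), the nuclear proteins HMGB1 and HMGB2, the uptake inhibitor CD47, the ATP-handling proteins ENTPD1 and PANX1, and the interferon receptor chain IFNAR1. They were chosen by gene symbol for their known roles, with earlier results of these data known, and make up 10 of the 62703 genes in the deposited tables. All 10 passed the filter on low counts, among 16082 genes tested. The study treated H929, an established human multiple myeloma cell line, and measured total RNA by paired-end sequencing. Its title names inhibition of MALT1, the paracaspase that Mi-2 blocks, and immunogenic cell death of myeloma cells. The treated group was wild-type H929 given 1 µM Mi-2 for 24 h (3 libraries), and the control group was wild-type H929 given DMSO, the solvent, for 24 h (3 libraries); both were grown in RPMI-1640 with fetal bovine serum and antibiotics. All cells were of 1 line. The title of every library ends in "bio rep 1", and no label states whether the 3 libraries of a group were separate cultures. P-values therefore reflect only how these libraries vary, and that spread may be technical.

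In immunogenic cell death, a dying cell shows or releases molecules that make phagocytes take it up and present its antigens. Calreticulin, a folding chaperone of the endoplasmic reticulum (ER), moves to the cell surface together with PDIA3 and is read there as an uptake signal, while CD47 on the same surface tells macrophages not to engulf. HMGB1 leaves the nucleus and binds pattern-recognition receptors, ATP leaves through pannexin channels and attracts phagocytes, ENTPD1 breaks that ATP down, and type I interferon acts through IFNAR1. Surface exposure, release and secretion are events of proteins and metabolites, and none of them was measured here: every value below is an RNA level or a difference in one.

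Total estimated counts were 21938893, 23586636 and 23756745 in the Mi-2 libraries, against 19980689, 22651557 and 21788314 in the DMSO libraries. By edgeR's quasi-likelihood test, 808 of all tested genes (5.02%) were called higher in Mi-2 and 969 (6.03%) lower, where a call needs an adjusted p below 0.05. Of 10 plasma cell and myeloma markers, 9 were tested; IRF4 and MZB1 rose, SDC1 and CD38 fell, and their summed level was 10334 to 13455 TPM (transcript abundance corrected for length and library size) in Mi-2 libraries, against 9485 to 13219 TPM in DMSO libraries. JCHAIN carried much of that sum (6531 ± 1131 TPM with Mi-2 and 6248 ± 1130 TPM with DMSO, SD, n = 3 each), and CD79A was near 0. The summed markers of other cell types stood lower, and 1 gene carried most of each of the next 3 sums: CD3E (43.5 TPM with Mi-2 and 30.9 TPM with DMSO), CD68 (67.2 TPM with Mi-2 and 35.01 TPM with DMSO) and PECAM1 (84.03 TPM with Mi-2 and 66.5 TPM with DMSO). CD38, of the plasma cell set, stood at a level of that order (43.6 TPM with Mi-2 and 79.03 TPM with DMSO). The summed level of 10 T and NK cell markers was 42.8 to 48.2 TPM with Mi-2, against 30.04 to 35.1 TPM with DMSO, with CD3D and CD8A listed at 0, and CD3E, the 1 that was tested, rose. The 10 myeloid markers summed to 56.6 to 78.5 TPM with Mi-2, against 29.4 to 40.0 TPM with DMSO; AIF1 was listed at 0, and CD68, a lysosomal protein and the 1 that was tested, rose. The 10 stromal, endothelial and epithelial markers summed to 89.2 to 125 TPM with Mi-2, against 69.98 to 90.4 TPM with DMSO, with COL1A2 and CDH5 listed at 0 and PECAM1 and KRT18 higher among the 4 that were tested. The 8 erythroid and platelet markers summed to 2.28 to 20 TPM with Mi-2, against 1.78 to 18.6 TPM with DMSO, with PF4 and PPBP listed at 0 and neither of the 2 tested called. The part of these other markers in the results below was not tested, and in bulk RNA a smaller number of cells of a kind cannot be told apart from less RNA per cell.

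Of the 10 genes, 2 rose with Mi-2 (CALR and PDIA3), 3 fell (HMGB1, CD47 and ENTPD1) and 5 did not pass the test (CANX, BCAP31, HMGB2, PANX1 and IFNAR1). These shares stand beside 5.02% of all tested genes called higher and 6.03% called lower. The median log2 fold change (Mi-2 over DMSO) was -0.02 over the 10 genes and 0.005 over all genes tested. The levels of the 3 Mi-2 libraries lay wholly outside those of the 3 DMSO libraries for 6 of the 10 genes in TPM, against 26.9% of all tested genes. The same held for 6 of the 10 in CPM (counts corrected for TMM-scaled library size but not for transcript length), against 32.3%. Both sets held CALR, CANX, PDIA3, HMGB1 and ENTPD1, with HMGB2 added in TPM and CD47 in CPM. Leaving out 1 library at a time kept 2 genes higher each time, but the number of lower genes ranged from 0 to 3: it was 0 without Mi-2 library 1, 1 without DMSO library 2 and 1 without DMSO library 3.

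**Figure D1:**
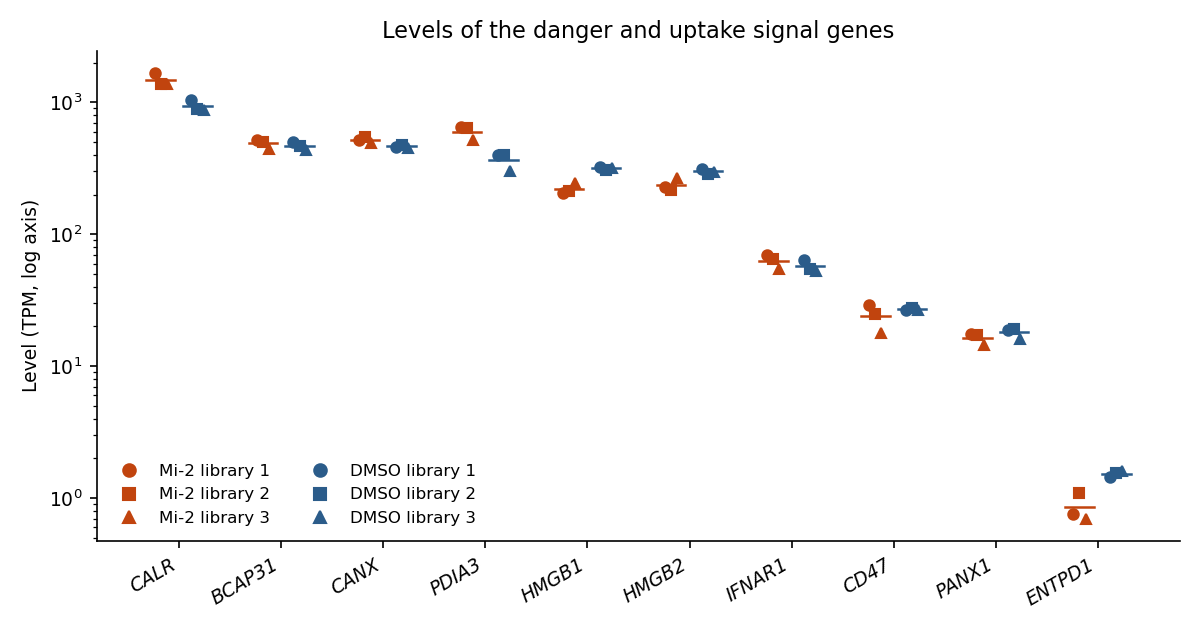
Level of each of the 10 genes in TPM (log axis) in every library, with Mi-2 libraries to the left of DMSO libraries; each point is 1 library and each bar the mean of 3. CALR stands at the top of both groups and ENTPD1 at the bottom, and CALR, PDIA3 and CANX lie wholly higher, and HMGB1, HMGB2 and ENTPD1 wholly lower, in the Mi-2 libraries.

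TPM corrects for transcript length and so allows levels of different genes to be set side by side. With Mi-2 the order of mean TPM was CALR, PDIA3, CANX, BCAP31, HMGB2, HMGB1, IFNAR1, CD47, PANX1 and ENTPD1. The library ranges of PDIA3 and CANX overlapped there, as did those of CANX and BCAP31 and those of HMGB2 and HMGB1; every other pair of neighbours was separate. With DMSO the order was CALR, BCAP31, CANX, PDIA3, HMGB1, HMGB2, IFNAR1, CD47, PANX1 and ENTPD1, with overlapping ranges for BCAP31 and CANX, for PDIA3 and HMGB1, and for HMGB1 and HMGB2. PDIA3 thus stood above CANX and BCAP31 in the Mi-2 order and below both in the DMSO order, while the 4 genes of lowest level kept their places.

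CALR encodes calreticulin, the lectin chaperone that holds glycoproteins in the ER until they fold, and the classical uptake signal when exposed; its gene lies on the plus strand of chromosome 19 at chr19:12938578-12944489 (GRCh38, GENCODE 29). Its level was 1669, 1376 and 1387 TPM in the Mi-2 libraries, against 1048, 883 and 869 TPM in the DMSO libraries. In counts it stood at 2273, 1941 and 1981 CPM with Mi-2, against 1432, 1184 and 1278 CPM with DMSO. Every Mi-2 library was above every DMSO library on both scales, and library 1 was the highest of its group in each. CALR rose 1.59-fold, a log2 fold change of 0.67 ± 0.11 (SE, n = 3 each; 95% interval 0.43 to 0.91; adjusted p = 0.00697 by edgeR), and it stayed called without any 1 library.

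PDIA3 encodes ERp57, the disulfide isomerase that binds calreticulin and calnexin and travels to the surface with calreticulin; it lies at chr15:43746392-43773279 on the plus strand. Its level was 648, 636 and 519 TPM with Mi-2, against 398, 398 and 302 TPM with DMSO. In counts it stood at 887, 831 and 735 CPM with Mi-2, against 552, 513 and 439 CPM with DMSO. The groups did not overlap, and library 3 was the lowest of its group in each. PDIA3 rose 1.63-fold (log2 fold change 0.71 ± 0.11, SE, n = 3 each; 95% interval 0.45 to 0.96; edgeR adjusted p = 0.00668), again whichever library was left out. Its 2 named pseudogenes could take reads of the parent gene; they held 1.15 to 2% of the joint counts, and PDIA3P1 was itself higher (0.55 ± 0.15, SE; edgeR adjusted p = 0.0483).

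CANX encodes calnexin, the membrane-bound counterpart of calreticulin, at chr5:179678628-179730925 on the plus strand. Its level was 517, 542 and 488 TPM with Mi-2, against 461, 478 and 449 TPM with DMSO, and 1820, 1962 and 1775 CPM, against 1680, 1646 and 1739 CPM with DMSO. The groups were separate on both scales by a narrow gap, and the log2 fold change of 0.13 ± 0.09 (SE, n = 3 each; 95% interval -0.06 to 0.33; edgeR adjusted p = 0.371) did not pass the test. The ratio of CALR to CANX in TPM was 3.23, 2.54 and 2.84 in Mi-2 libraries, against 2.27, 1.85 and 1.94 in DMSO libraries. The Mi-2 ratios were all above the DMSO ratios, and the log2 ratio averaged 1.51 ± 0.17 with Mi-2 and 1.01 ± 0.16 with DMSO (SD, n = 3 each), a difference of 0.51. That ratio was chosen after the values of both genes were seen, so it is given without a test.

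BCAP31, an ER membrane protein that escorts newly made membrane proteins and is cut by caspase-8 before calreticulin exposure, lies on the minus strand at chrX:153700492-153724746. Its level was 515, 503 and 445 TPM with Mi-2, against 499, 471 and 438 TPM with DMSO. The groups overlapped, and the log2 fold change was 0.08 ± 0.08 (SE, n = 3 each; 95% interval -0.10 to 0.27; edgeR adjusted p = 0.569). The interval of CALR's log2 fold change lay wholly above that of BCAP31, while the difference itself was not tested.

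The promoters of CALR and CANX are shown because both hold the ER stress response element, the site through which ATF6 and NF-Y act on chaperone genes. RefSeq promoter windows (250 bases before to 50 after each start, GRCh38.p14) were given for 8 of the 10 genes, all but PDIA3 and HMGB2. The motif searched was CCAAT and CCACG with 9 bases of any kind between them, on both strands. Both sequences are printed 5′ to 3′ on the plus strand, with the fixed letters of the motif in capitals; in CALR the motif runs on the opposite strand and so reads as its reverse complement. The CALR stretch is chr19:12938359-12938577, ending just before the gene's annotated start, and the CANX stretch is chr5:179698773-179698802.
CALR: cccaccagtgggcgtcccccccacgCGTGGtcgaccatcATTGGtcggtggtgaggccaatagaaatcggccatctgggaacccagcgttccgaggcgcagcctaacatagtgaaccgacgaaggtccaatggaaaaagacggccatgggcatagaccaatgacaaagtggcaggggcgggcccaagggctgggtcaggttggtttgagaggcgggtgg
CANX: cccggCCAATcttcacactCCACGaagaat
The CALR match lay 225 to 207 bases before the RefSeq start, and the CANX match 151 to 133 bases before the start of the first CANX window listed. This motif was found in 27 of 35116 windows (0.0769%), which belong to 25 of 27305 genes. Of those 25 genes 16 were tested and 9 rose, or 8 of 14 with CALR and CANX left out, beside 5.02% of all tested genes called higher; this is a description, since the motif was chosen with earlier results known. The 9 were CALR, CRELD2, HSPA5, HSP90B1, PDIA6, ERO1B, FICD, TMEM120A and TRIM5. CRELD2, HSPA5, HSP90B1 and PDIA6 also stand in the list of ER chaperones below, so that list's count and this one share genes. CANX and XBP1 (log2 fold change -0.19 ± 0.15, SE; edgeR adjusted p = 0.479) did not pass the test, and no gene with the motif was called lower. The shorter CCAAT box, which the element contains, stood in the windows of CALR, CANX, HMGB1 and ENTPD1 and in 34.6% of all windows. None of the 8 genes had a match to ATTGG and CCACG with 1 base between them, to TGACGTGG, TTTCCCGC or TTTGGCGC, which were found in 0.0541%, 0.729%, 1.63% and 0.652% of windows; this says only that these letters are not in these windows. A match is a description of the sequence and not evidence of a bound factor.

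Other genes of the ER were read from lists, whose counts stand beside 5.02% of all tested genes called higher and 6.03% called lower. In the calnexin and calreticulin cycle, the enzymes that trim, test and refold glycoproteins, 3 of 13 tested genes rose, none fell and 10 did not pass the test, with a median log2 fold change of 0.11. The 3 were PPIB, a prolyl isomerase (0.69 ± 0.11, SE; 895 ± 92.5 CPM with Mi-2 and 557 ± 58.8 CPM with DMSO, SD; edgeR adjusted p = 0.00728), EDEM1, which sends misfolded glycoproteins to degradation (0.54 ± 0.14, SE; edgeR adjusted p = 0.0403), and MOGS, the first glucosidase of the cycle (0.36 ± 0.09, SE; edgeR adjusted p = 0.0349). UGGT1, the sensor that returns unfolded glycoproteins to calnexin and calreticulin, had a log2 fold change of 0.18 ± 0.10 (SE; edgeR adjusted p = 0.254). The count of 3 was 1 without Mi-2 library 1, Mi-2 library 2, DMSO library 2 or DMSO library 3. Among 12 ER chaperones and related ER genes of the unfolded protein response, 10 rose and none fell, with a median of 0.57. SDF2L1 and SEC61B did not pass the test. CRELD2 (1.16 ± 0.16, SE; edgeR adjusted p = 0.0041), DNAJB9 (1.09 ± 0.17, SE; edgeR adjusted p = 0.00618) and MANF, a secreted stress factor (0.86 ± 0.11, SE; edgeR adjusted p = 0.00301), had the largest changes in that list. The count of 10 was 4 without Mi-2 library 1, without DMSO library 2 or without DMSO library 3. CALR's log2 fold change of 0.67 and PDIA3's of 0.71 thus stood above the median of this list and CANX's of 0.13 below it.

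Of 11 tested genes of the exposure route, among them the eIF2α kinase EIF2AK3, caspase-8 (CASP8), BAX, BAK1 and the surface receptor LRP1, KDELR2 alone passed the test and was higher, beside 5.02% of all tested genes called higher. KDELR2 encodes a receptor that returns KDEL-tailed proteins such as calreticulin to the ER; it stood at 126 ± 12.6 CPM with Mi-2 and 80.1 ± 4.13 CPM with DMSO (SD, n = 3 each), a log2 fold change of 0.65 ± 0.09 (SE; edgeR adjusted p = 0.00496). The other KDEL receptors, KDELR1 and KDELR3, did not pass the test (edgeR adjusted p = 0.967 and 0.0708), and the median of the list was 0.16. The count of 1 became 2 without Mi-2 library 2, without DMSO library 1, by DESeq2, with upper-quartile scaling and with no filter on low counts.

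**Figure D2:**
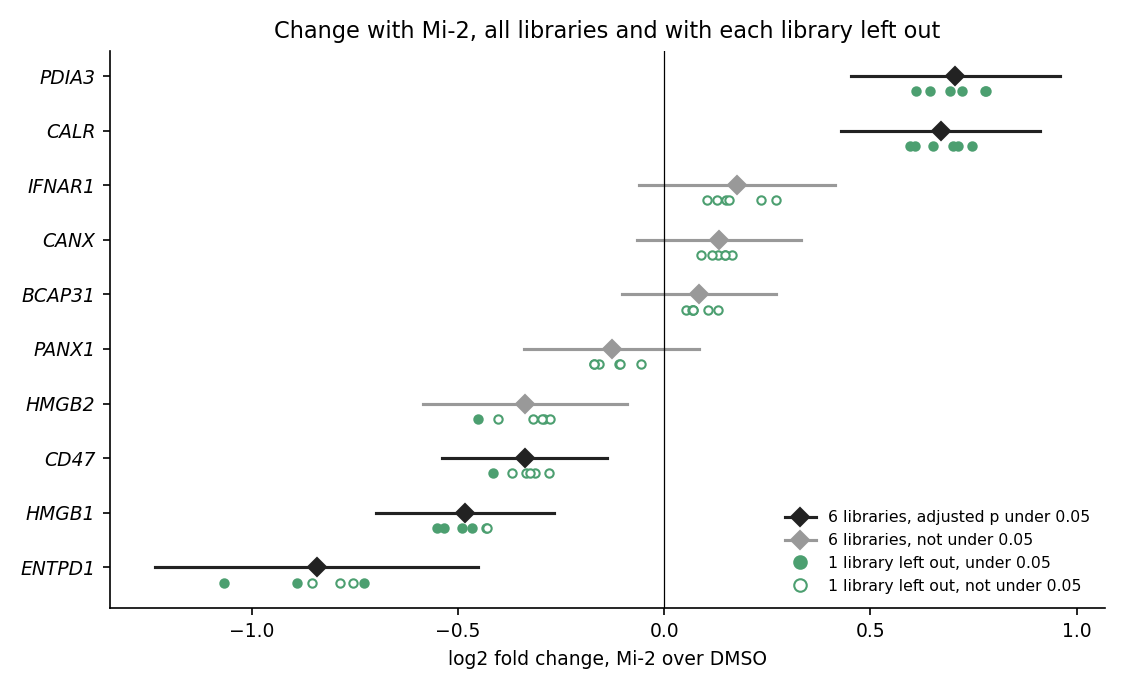
Log2 fold change (Mi-2 over DMSO) of the 10 genes from edgeR, with all 6 libraries (diamonds, 95% intervals as bars, black where called) and with each library left out in turn (circles, filled where called). The intervals of CALR and PDIA3 lie above 0, those of HMGB1, HMGB2, CD47 and ENTPD1 below it, and those of CANX, BCAP31, PANX1 and IFNAR1 cross it; HMGB2 did not pass the threshold after adjustment (adjusted p = 0.0819).

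HMGB1 encodes the chromatin protein that acts as a danger signal once outside the cell; the gene lies on the minus strand at chr13:30456704-30617597. Its level was 205, 214 and 243 TPM with Mi-2, against 325, 307 and 316 TPM with DMSO. In counts it stood at 175, 183 and 205 CPM with Mi-2, against 259, 244 and 284 CPM with DMSO. Each Mi-2 library was below each DMSO library, and Mi-2 library 3 lay nearest to the DMSO group. HMGB1 fell 1.40-fold (log2 fold change -0.48 ± 0.10, SE, n = 3 each; 95% interval -0.70 to -0.27; edgeR adjusted p = 0.0145). The adjusted p was 0.0663 without Mi-2 library 1 and 0.058 without DMSO library 3, and HMGB1 stayed called when any of the others was left out.

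HMGB1 shares sequence with many pseudogenes, among which the counting could have split its reads. Of 48 named HMGB1 pseudogenes 18 had counts, and together they held 20.2, 23.4 and 21.8% of the joint counts in the Mi-2 libraries, against 20.1, 24.8 and 19.7% in the DMSO libraries. That share overlapped between the groups. HMGB1P5 fell with its parent (-0.53 ± 0.13, SE; edgeR adjusted p = 0.0309), HMGB1P6 did not pass the test (-0.24 ± 0.15, SE; edgeR adjusted p = 0.365), and with all of their counts added to HMGB1 the gene fell by 0.48 on the log2 scale (edgeR adjusted p = 0.0137).

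HMGB2, the close relative of HMGB1 that is abundant in dividing cells, lies at chr4:173331695-173335125 on the minus strand. Its level was 226, 216 and 269 TPM with Mi-2, against 315, 289 and 295 TPM with DMSO, which separates the groups. In CPM it was 207, 201 and 254 with Mi-2, against 294, 253 and 289 with DMSO, where Mi-2 library 3 just exceeded DMSO library 2. Its log2 fold change was -0.34 ± 0.11 (SE, n = 3 each; 95% interval -0.59 to -0.09), with an unadjusted p of 0.0128 and an edgeR adjusted p of 0.0819. Without Mi-2 library 3 the log2 fold change was -0.45 and the edgeR adjusted p 0.0299, and DESeq2 called HMGB2 lower with all libraries (adjusted p = 0.0317). The ratio of HMGB2 to HMGB1 in TPM was 1.10, 1.01 and 1.11 with Mi-2, against 0.969, 0.941 and 0.932 with DMSO. In CPM that ratio overlapped between the groups, at 1.18, 1.10 and 1.24 with Mi-2, against 1.13, 1.04 and 1.02 with DMSO. Reads assigned to HMGB1 pseudogenes were not added to HMGB1 in these ratios. HMGB1P5 alone stood at 40.5 TPM with Mi-2 and 59.4 TPM with DMSO, so which of HMGB1 and HMGB2 stood higher may depend on that assignment.

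Relatives, receptors and export factors of the HMGB proteins gave 1 higher and 1 lower call among 9 tested genes, with a median of -0.11. These counts, and the proliferation counts below, stand beside 5.02% of all tested genes called higher and 6.03% called lower. TLR9, an endosomal DNA receptor that HMGB1-bound DNA can engage, was higher (0.49 ± 0.14, SE; edgeR adjusted p = 0.048), and XPO1, the nuclear export receptor, was lower (-0.37 ± 0.10, SE; edgeR adjusted p = 0.0419). Leaving out 1 library at a time gave 0 higher calls in this list each time, and a lower call only without Mi-2 library 2. HMGB3 had a log2 fold change of -0.22 ± 0.10 (SE; edgeR adjusted p = 0.183). Both HMGB genes are used by dividing cells, and the 14 proliferation genes are therefore given beside them: 11 fell, none rose, and their median was -0.68. MCM2, a subunit of the replicative helicase, had a log2 fold change of -1.10 ± 0.17 (SE; edgeR adjusted p = 0.00634), RRM2, the ribonucleotide reductase subunit, of -0.93 ± 0.09 (SE; edgeR adjusted p = 0.00196), and MCM5 of -0.91 ± 0.14 (SE; edgeR adjusted p = 0.00575). The count of 11 was 7 without Mi-2 library 1 and at least 8 without any other library. The part of proliferation in the values of HMGB1 and HMGB2 was not tested.

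Other intracellular proteins that act as danger signals did not move one way, and their calls stand beside 5.02% of all tested genes called higher and 6.03% called lower. Of 6 tested, ANXA1, the annexin that guides dendritic cells to dying cells, rose at a low level (5.98 ± 0.431 CPM with Mi-2 and 1.89 ± 0.0782 CPM with DMSO, SD, n = 3 each; log2 fold change 1.66 ± 0.19, SE; edgeR adjusted p = 0.00217). HSP90AA1, the inducible cytosolic HSP90, fell (995 ± 178 CPM with Mi-2 and 1757 ± 124 CPM with DMSO, SD; log2 fold change -0.82 ± 0.13, SE; edgeR adjusted p = 0.00666), and so did HSPD1, the mitochondrial chaperonin HSP60 (-0.74 ± 0.14, SE; edgeR adjusted p = 0.0136); without DMSO library 2 only 1 gene of the list was called lower. The inducible HSP70 genes HSPA1A and HSPA1B did not pass the test (edgeR adjusted p = 0.659 and 0.796). HSPA1A was near the floor (1.23 TPM with Mi-2 and 0.73 TPM with DMSO), and HSPA1B stood at 40.9 and 47.6 TPM. Their log2 fold changes had standard errors of 0.81 and 0.40, so a change in either could have been missed.

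**Figure D3:**
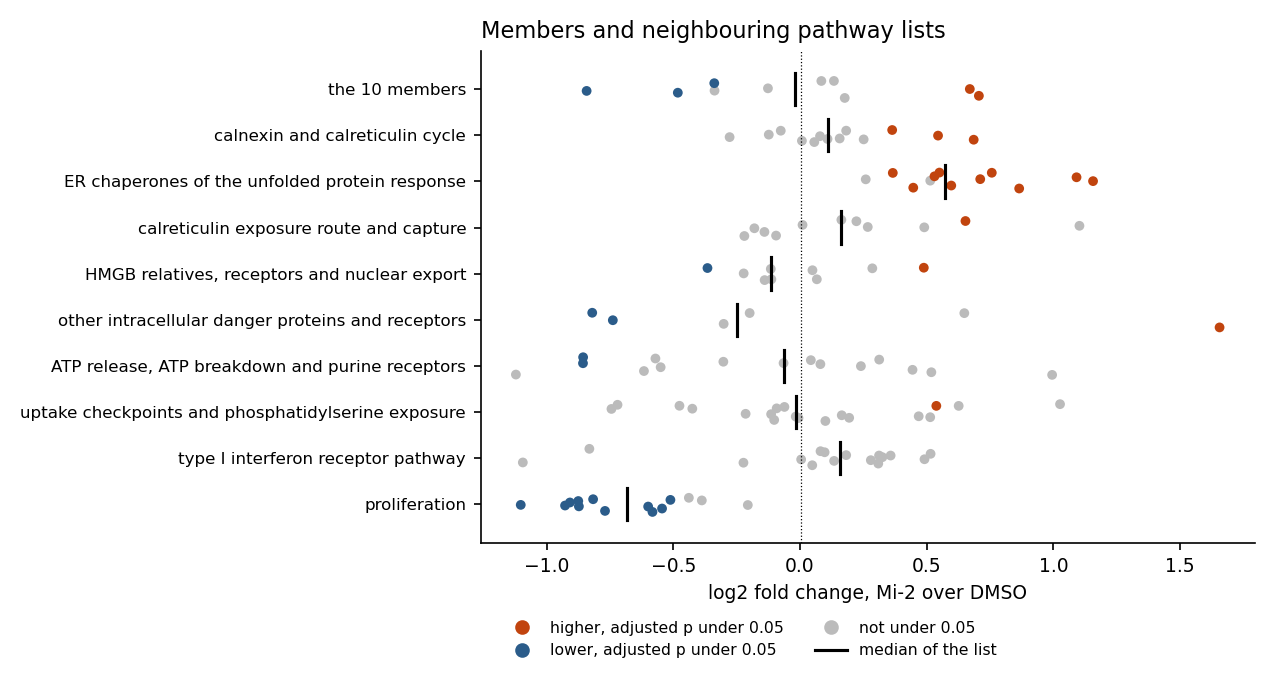
Log2 fold change (Mi-2 over DMSO) of every tested gene in each list, 1 point per gene, with genes called higher in red, those called lower in blue, the list's median as a solid line and the median of all tested genes as a dotted one. The points of the list of ER chaperones and related genes are all above 0 (10 of 12 called higher). The proliferation points are all below it (11 of 14 called lower), and the type I interferon points are uncalled on both sides of 0. Over all tested genes 5.02% were called higher and 6.03% lower.

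CD47 encodes the surface protein that binds SIRPα on macrophages and holds back engulfment; it lies on the minus strand at chr3:108043094-108091862. In counts it stood at 56.8, 61.1 and 58.5 CPM with Mi-2, against 75.8, 80.3 and 67.0 CPM with DMSO. Those groups were separate. In TPM it stood at 29.3, 24.7 and 17.7 with Mi-2, against 26.6, 27.5 and 26.6 with DMSO. On that scale the groups overlapped, since Mi-2 library 1 was the highest of all 6 and Mi-2 library 3 the lowest. By edgeR on counts CD47 fell 1.26-fold (log2 fold change -0.34 ± 0.09, SE, n = 3 each; 95% interval -0.54 to -0.14; adjusted p = 0.0405), whereas limma on log2(TPM + 1) gave -0.19 with an adjusted p of 0.56.

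The call for CD47 was also the least stable of the 5. It was kept without DMSO library 3 (edgeR adjusted p = 0.046) and lost without any of the others: for the Mi-2 group the adjusted p was 0.148 with library 1 left out, 0.0671 with library 2 left out and 0.0818 with library 3 left out, and for the DMSO group it was 0.0973 with library 1 left out and 0.151 with library 2 left out. The deposited counts and TPM imply a transcript length for each gene and library, which depends on how reads were divided among its transcripts. Relative to the DMSO mean, this length for CD47 was 0.718, 0.890 and 1.18 in Mi-2 libraries, against 1.05, 1.10 and 0.866 in DMSO libraries. The values overlapped and did not follow the treatment. Their span over the 6 libraries was 0.71 on the log2 scale, at percentile 96.1 of 10290 genes whose median span was 0.17; the other 8 genes of the group with a value spanned at most 0.14. CD47 has 6 annotated transcripts, of which 5 are coding and range from 469 to 5225 bases.

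**Figure D4:**
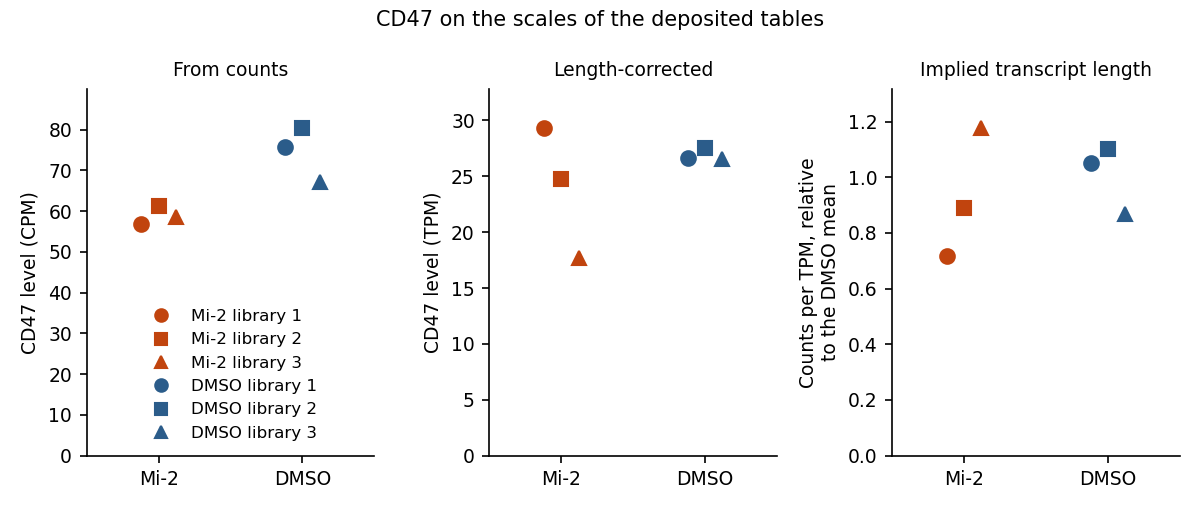
CD47 in each library on 3 scales (CPM, TPM and implied transcript length relative to the DMSO mean), with the Mi-2 libraries left of the DMSO libraries. The CPM points separate by group, while TPM and implied length spread most within the Mi-2 group, between 29.3 and 17.7 TPM and between 0.718 and 1.18.

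The ratio of CALR to CD47 sets the uptake signal's RNA beside that of its inhibitor. In TPM it was 57.0, 55.7 and 78.4 in Mi-2 libraries, against 39.4, 32.1 and 32.7 in DMSO libraries. All 3 Mi-2 ratios were higher than the DMSO ratios, and Mi-2 library 3 stood above its group. In CPM, which is not corrected for length, the ratio was 39.99, 31.8 and 33.8 in Mi-2 libraries, against 18.9, 14.7 and 19.1 in DMSO libraries. Those groups were separate too, but in CPM CALR was higher and CD47 lower in every Mi-2 library than in every DMSO library. Separation of the CPM ratio follows from that and is not a further result. In CPM Mi-2 library 1 had the highest ratio. The log2 ratio averaged 5.97 ± 0.28 with Mi-2 and 5.11 ± 0.16 with DMSO (SD, n = 3 each), a difference of 0.86 in TPM and of 1.01 in CPM. An exact permutation test of 3 libraries against 3 cannot go below a p of 0.10, and no p is given because both genes were chosen with their values known.

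**Figure D5:**
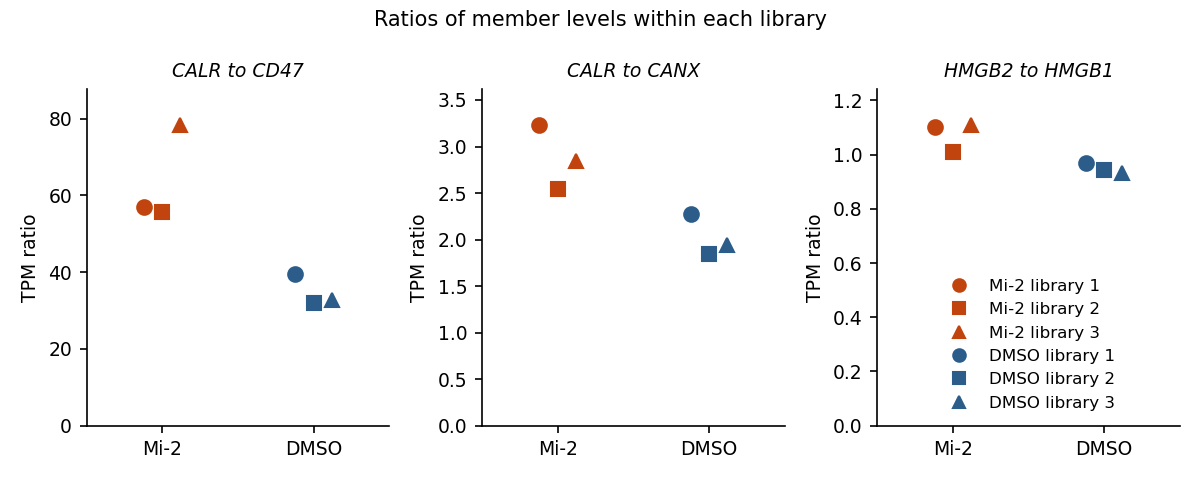
Ratios of TPM within each library for CALR to CD47, CALR to CANX and HMGB2 to HMGB1, with the Mi-2 libraries left of the DMSO libraries and each axis starting at 0. In each panel the 3 Mi-2 libraries lie above the 3 DMSO libraries, with CALR to CD47 between 55.7 and 78.4 with Mi-2, against 32.1 to 39.4 with DMSO.

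Other genes of uptake control gave 1 call among 19 tested, a higher one. That is of the order of the 5.02% of all tested genes called higher, and 6.03% were called lower. QPCTL, the glutaminyl cyclase that modifies the CD47 end bound by SIRPα, stood at 36.6 ± 3.74 CPM with Mi-2 and 25.2 ± 1.39 CPM with DMSO (SD, n = 3 each) and rose (log2 fold change 0.54 ± 0.11, SE; edgeR adjusted p = 0.0137). That call was lost when Mi-2 library 1 or DMSO library 2 was left out. B2M, CD24, CD274 and SLAMF7, which give other checkpoint or uptake signals from the tumour cell, did not pass the test (edgeR adjusted p = 0.943, 0.481, 0.544 and 0.645). B2M stood at 2316 CPM with Mi-2 and 2343 CPM with DMSO, and SLAMF7 at 560 and 601 CPM. CD24 (0.373 CPM with Mi-2 and 0.621 CPM with DMSO) and CD274 (1.07 and 0.753 CPM) were near the floor. Their log2 fold changes had standard errors of 0.59 and 0.48, so a change in either could have been missed. The phosphatidylserine flippases and scramblases ATP11A, TMEM30A, XKR8 and ANO6 were also not called, and the median of the list was -0.02. Of these, XKR8 was near the floor too (1.24 CPM with Mi-2 and 0.803 CPM with DMSO).

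ENTPD1 encodes CD39, the surface enzyme that breaks down extracellular ATP; it lies at chr10:95711779-95869695 on the plus strand. It was the lowest of the 10 genes, at 0.76, 1.10 and 0.70 TPM with Mi-2, against 1.44, 1.56 and 1.60 TPM with DMSO. In counts it stood at 8.03, 11.8 and 7.67 CPM with Mi-2, against 15.3, 16.2 and 17.8 CPM with DMSO. The groups did not overlap, and Mi-2 library 2 was the highest of its group. ENTPD1 fell 1.79-fold (log2 fold change -0.84 ± 0.18, SE, n = 3 each; 95% interval -1.23 to -0.45; edgeR adjusted p = 0.0169), the largest change among the 10. That call was lost without Mi-2 library 1 (adjusted p = 0.0726), DMSO library 2 (0.0559) or DMSO library 3 (0.0645), and limma on log2(TPM + 1) gave an adjusted p of 0.200.

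The antisense gene ENTPD1-AS1 overlaps ENTPD1 and held 144 to 240% of its counts, and whether strand was used in the counting is not given in the sources used here, so reads of the pair cannot be told apart. ENTPD1-AS1 had estimated counts of 333, 475 and 440 with Mi-2, against 443, 691 and 556 with DMSO, and its log2 fold change of -0.53 missed the threshold (edgeR adjusted p = 0.0526).

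PANX1 encodes the plasma membrane channel that caspases open to let ATP out, at chr11:94128928-94181972 on the plus strand. Its level was 17.6, 17.3 and 14.5 TPM with Mi-2, against 18.7, 19.2 and 16.2 TPM with DMSO. Library 3 was the lowest of its group in each, the groups overlapped, and the log2 fold change was -0.13 ± 0.09 (SE, n = 3 each; 95% interval -0.34 to 0.09; edgeR adjusted p = 0.436). Among 15 other tested genes of ATP release, ATP breakdown and purine receptors, edgeR called none higher and 2 lower, beside 5.02% and 6.03% of all tested genes. DESeq2 called 2 of the 15 higher and 2 lower, and 1047 higher and 1282 lower over all 16082 genes. The lower genes by edgeR were CD38, an ectoenzyme of NAD and a plasma cell marker (164 ± 41.5 CPM with Mi-2 and 297 ± 75.5 CPM with DMSO, SD, n = 3 each; log2 fold change -0.86 ± 0.21, SE; edgeR adjusted p = 0.0296), and SLC29A1, the nucleoside transporter ENT1 (63.5 ± 13.5 CPM with Mi-2 and 115 ± 16.5 CPM with DMSO, SD; log2 fold change -0.86 ± 0.16, SE; edgeR adjusted p = 0.0114). NT5E, which encodes CD73, the enzyme after CD39 in the breakdown of ATP to adenosine, was not called (edgeR adjusted p = 0.222). The count of 2 lower genes was 1 without Mi-2 library 1, Mi-2 library 3 or DMSO library 2, and 1 gene was called higher without Mi-2 library 2 or DMSO library 1.

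IFNAR1 encodes a chain of the type I interferon receptor, at chr21:33324477-33359862 on the plus strand. Its level was 69.0, 65.0 and 55.0 TPM with Mi-2, against 64.1, 54.3 and 52.7 TPM with DMSO. The groups overlapped, library 1 was the highest of each, and the log2 fold change was 0.18 ± 0.11 (SE, n = 3 each; 95% interval -0.06 to 0.41; edgeR adjusted p = 0.320). IFNAR2, the partner chain, had a log2 fold change of 0.00 ± 0.10 (SE; edgeR adjusted p = 0.986). The 16 tested genes of the pathway include the kinases JAK1 and TYK2 and the factors STAT2 and IRF9. The targets ISG15, MX1, IFIT1, OAS1 and CXCL10 are among them too. None of the 16 was called by edgeR, beside 5.02% of all tested genes called higher and 6.03% called lower. An unadjusted edgeR p under 0.05 was found for 2 of the 16, and for 4347 of all 16082 genes tested. DESeq2 called 1 of the 16, higher, and over all genes it called 1047 higher and 1282 lower. IFNB1, a ligand, did not pass the filter on low counts. Some targets varied widely within both groups. IFIT1 stood at 66.0, 56.7 and 17.0 TPM with Mi-2, against 46.4, 55.5 and 11.2 TPM with DMSO. ISG15 stood at 1463, 1490 and 602 TPM, against 1223, 1674 and 547 TPM. The standard errors of their log2 fold changes were 0.54 and 0.38, so the lack of calls does not show an unchanged pathway. With a replicate block, genes of this list were called higher, as given below.

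Over the 6 libraries, the genes of at least moderate expression whose log2(TPM + 1) followed a member most closely were found by Pearson's r among 5780 candidates, as a description of points that share a library and fall into 2 groups. Where the member's TPM separates the groups, a shared direction follows from this choice and is not a further result. For CALR they were COPA, a coat protein of Golgi-to-ER transport (r = 0.997), WDR45 (0.997) and the ER chaperone HYOU1 (0.996), and all of these rose. HMGB1 was followed by the mitotic kinase PBK (0.998), the condensin subunit NCAPG (0.998) and the replication factor CDC6 (0.996), and all of these fell. CD47 was followed by VPS52 (0.983), GFM2 (0.962) and GPATCH2L (0.954), and none of these was called. For ENTPD1 they were U2AF1 (0.998), NHP2 (0.994) and DDX46 (0.993), of which DDX46 was called lower.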

How the data were processed

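RNA of 6 H929 libraries was sequenced; the authors deposited a table of estimated counts per gene and a table of TPM values, each with 1 column per library. Per the submitters' processing notes, the tools were RSEM 1.3.3, StringTie 2.1.0, HISAT2 2.1.0 and fastp 0.19.5, with the build GRCh38.p13 and no order or settings. Annotation release and strand use were not given in those sources.

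Counts were rounded and tested in R 4.3.3 with edgeR 4.0.16 (filterByExpr with a minimum count of 10 and a minimum total of 15, TMM, quasi-likelihood F test, Benjamini-Hochberg adjustment over all 16082 genes, threshold 0.05). CPM used the TMM library sizes. A standard error is the size of the log2 fold change divided by the root of F, and 95% intervals use edgeR's degrees of freedom. The script was tested on simulated data. Replicates of a group differed by more than sampling noise, so none was counted as a copy.

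The members and lists were chosen with earlier results of these data known, so no test over a list is given. All 10 members are named; in each list, up to 3 called genes with the largest change and an average log2 CPM of at least 1 were named by that rule. Other listed genes named for their known role, and the genes named beside the promoter motif, were chosen after their values were seen. Similar genes needed an average log2 CPM of at least 5. Alternatives were other scalings, filters, DESeq2 1.42.0, limma 3.58.1 on counts and on TPM, a replicate block and each library left out. Merging HMGB1 with its pseudogenes and the CALR to CANX ratio were added after seeing the data. Gene locations come from GENCODE 29 and promoters from RefSeq.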

Additional observations from a re-analysis of the deposited data

How the results depend on the processing

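All 10 genes kept their direction under the 18 alternatives. CALR and PDIA3 stayed called under 17, HMGB1 under 15, ENTPD1 under 12 and CD47 under 10; CANX, BCAP31, PANX1 and IFNAR1 were called under none, and HMGB2 under 4. Among all genes, 808 were higher and 969 lower; this was 1221 and 1541 with no filter on low counts, 229 and 381 on log2(TPM + 1), and 249 and 398 on log2(TPM + 0.1). On both TPM scales 1 of the 10 genes, HMGB1, was called lower. On log2(TPM + 1) with no TPM filter limma called 0 genes higher and 0 lower, 0 of the 10 among them, with 3808 genes at an unadjusted p under 0.05. Leaving out 1 library gave 216 to 715 higher and 302 to 866 lower genes, and 0 to 3 of the 10 called lower; the smallest totals were 216 and 302 with Mi-2 library 1 left out, 246 and 390 with DMSO library 2 left out, and 275 and 418 with DMSO library 3 left out, while 516 were higher without Mi-2 library 2. In the type I interferon list of 17 genes, 5 were called higher with no filter on low counts, where 31459 genes were tested in all. The cause of these moves was not tested.

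Libraries share replicate numbers, but the correlations of their deviations (0.521, 0.0895 and 0.327) do not establish a pairing; each library correlated best with its own number, a hint from the data and not the design. With a replicate block 1791 of 16082 genes were higher and 2035 lower. Of the 10, 2 were higher and 4 lower, HMGB2 being added (edgeR adjusted p = 0.00764). In the type I interferon list 6 of 16 tested genes were higher. In the calreticulin exposure list 3 of 11 tested genes were higher and 1 lower. These list counts stand beside the larger totals of the block, not beside 5.02% and 6.03%. ENTPD1, the gene of lowest level, had the largest standard error of the 10 (0.18 on the log2 scale).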
